A study of Homo sapiens with 16 samples.

Results

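The mitochondrial complex I mRNAs are the 7 transcripts MT-ND1, MT-ND2, MT-ND3, MT-ND4L, MT-ND4, MT-ND5 and MT-ND6, which the mitochondrial genome encodes. Every listed position on chromosome M whose gene symbol was one of these 7 names was kept, whatever its base and strand. That gave 5688 of the 719918 positions listed in the 10 tables of the series, or 89.5% of the 6356 bases of these transcripts. Reverse-transcription stops were measured in polyA RNA of 3 human cell populations: the kidney-derived line HEK293T, the colon cancer line HCT116, and HCT116-shDKC1, an HCT116 derivative with a short hairpin against DKC1. For HEK293T and HCT116 the groups were untreated (CMC-), CMC-treated (CMC+) and CMC-treated followed by Terminator (CMC+ Terminator). HCT116-shDKC1 had only the first and the last of these groups. The deposited names of the HCT116 and HCT116-shDKC1 data carry the tag Lacz, which the sample titles do not explain. Wild type below means HCT116 without the hairpin against DKC1. Each group held 2 libraries, 16 in all. The knockdown group is a line with 1 labelled hairpin, and no group received Terminator without CMC, so in HCT116-shDKC1 the effects of CMC and Terminator cannot be told apart. The labels do not say whether replicates came from separate cultures, so p-values measure only the spread between these libraries.

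Complex I is the NADH dehydrogenase of the respiratory chain, which passes electrons from NADH to ubiquinone and pumps protons across the inner mitochondrial membrane. Its 7 mitochondrially encoded subunits form the core of the membrane arm, and nuclear genes supply the rest. The mRNAs are cut from long polycistronic transcripts. MT-ND4L and MT-ND4 stay joined as 1 mRNA with overlapping reading frames, and MT-ND6 is the only protein gene read from the opposite (light) strand. CMC is a carbodiimide that forms a stable adduct with pseudouridine, the isomer of uridine, and reverse transcriptase halts at that adduct. Terminator is an exonuclease that degrades RNA from a 5′ monophosphate. DKC1 encodes dyskerin, the pseudouridine synthase of nuclear H/ACA ribonucleoproteins; in mitochondria other enzymes, such as TRUB2, RPUSD3 and RPUSD4, are known to make pseudouridine.

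A stop percent is the number of reads whose reverse transcription ended at a position over all reads covering it. Library totals were about 14900000 to 19100000 reads in HEK293T, 22500000 to 31300000 for HCT116 and its knockdown in the tables with Terminator, and 8650000 to 10200000 in the HCT116 tables without Terminator. The last tables count the same HCT116 CMC- libraries again with reads shared out among matching places, so their levels are not set against the others. Every table pairs a treated library with a control and lists a position only where the treated library had 5 or more stop reads, the control had 1 or more, and the stop ratio of the treated library equalled or exceeded the control's. The direction of a treated-over-control change in stop ratio is therefore fixed by the listing, for these mRNAs as for all others, and only its size and the comparisons between treated groups are free. Replicates differed at the listed positions of these mRNAs by a median of 0.213 to 0.339 on the log2 scale of stop ratio. Of 12 HCT116 epithelial markers, 5 or 6 were listed in each HCT116 and HCT116-shDKC1 table, against 1 or 2 in each HEK293T table; of 9 HEK293T markers, 5 to 8 were listed in HEK293T tables against at most 2 in the others. DKC1 itself was listed at only 1 to 3 positions with Terminator in HCT116 and its knockdown, with 24 and 45 control reads in HCT116 and 11 and 2 in the knockdown, so the knockdown could not be measured at this depth.

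On hg38, chromosome M, strand +, MT-ND1 lies at 3307 to 4262, MT-ND2 at 4470 to 5511, MT-ND3 at 10059 to 10404, MT-ND4L at 10470 to 10766, MT-ND4 at 10760 to 12137 and MT-ND5 at 12337 to 14148. MT-ND6 lies on strand - at 14149 to 14673. All 7 have a single exon and no intron in GENCODE release 29, and the listed base equalled the reference base at 100% of their positions. A position below carries its base and its coordinate on chromosome M. The following sites carried the results described further on, because they were called in all 3 cell populations, led a comparison or lay in a run of neighbouring calls in both HCT116 and HCT116-shDKC1. Each is shown 5′ to 3′ on the RNA strand, with T for U, and capitals mark the position or run named.
MT-ND4 U11154: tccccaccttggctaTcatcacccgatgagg
MT-ND4 A11138: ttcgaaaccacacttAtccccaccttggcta
MT-ND4 U11886: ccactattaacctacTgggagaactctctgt
MT-ND1 C3522 to C3525: caccctctacatCACCgccccgacctta
MT-ND1 A3892 to C3895: gagaccaaccgaACCCccttcgaccttg
MT-ND3 U10189 to C10192: gcttcgaccctaTATCccccgcccgcgt
MT-ND5 A12810 to C12813: catcagttgatgATACgcccgagcagat
MT-ND5 G13703 to U13706: accccattaaacGCCTggcagccggaag
The MT-ND4 window of U11154 holds the neighbouring adenosine A11153 just before the capital, and its first letters repeat the end of the A11138 window. The called bases of both MT-ND1 runs, CACC and ACCC, include no T.

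Listing was near complete for most members. It covered 97.9% of MT-ND4, 94.9% of MT-ND4L, 93.8% of MT-ND1, 92.9% of MT-ND5, 87.6% of MT-ND2 and 82.7% of MT-ND3, but 53.0% of MT-ND6. Uridine made up 26.9% of the listed positions and 26.5% of the transcripts. It made up 37.7% of the MT-ND6 transcript and 45.0% of its listed positions. Some sequence is shared with nuclear copies of mitochondrial DNA: 48.5% of listed MT-ND2 positions and 22.4% of MT-ND1 positions had a 31-base window found elsewhere in the tables, against 1.05% in MT-ND3. Counts at those positions depend on how reads matching several places were counted. Positions listed in every table of a comparison numbered 561 in HEK293T, 948 in the tables with Terminator of HCT116 and its knockdown, and 1414 in the HCT116 tables without Terminator; MT-ND6 held only 16, 7 and 4 of them.

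Coverage, as covering reads per listed position and per 1000000 library reads, ranked the members in nearly the same order in all cells. In HCT116 CMC- libraries MT-ND4, a proton-pumping subunit of the membrane arm, stood at 43.0 ± 7.57 (mean ± SD, n = 2). Its joined partner MT-ND4L stood at 39.9 ± 7.23. These means lay within the SD between libraries, but MT-ND4 was the higher within each library (37.7 and 48.4 against 34.7 and 44.97). MT-ND1, which helps form the ubiquinone site, followed at 25.2 ± 3.13, then MT-ND2, another pumping subunit, at 22.5 ± 3.23. MT-ND1 was likewise the higher within each library (22.95 and 27.38 against 20.27 and 24.84). MT-ND5, the distal pumping subunit, at 14.96 ± 3.08 and the small subunit MT-ND3 at 14.03 ± 1.74 could not be ranked against each other. MT-ND6, a small membrane subunit, was lowest at 2.25 ± 0.0389. HCT116-shDKC1 CMC- libraries gave 44.1 ± 2.18 for MT-ND4, 39.6 ± 4.12 for MT-ND4L, 25.3 ± 0.389 for MT-ND1, 22.8 ± 0.127 for MT-ND2, 15.8 ± 1.75 for MT-ND5, 15.6 ± 0.941 for MT-ND3 and 4.01 ± 1.71 for MT-ND6. In HEK293T CMC- libraries the order was MT-ND4 at 29.1 ± 4.57, MT-ND4L at 28.3 ± 5.43, MT-ND1 at 22.7 ± 4.98, MT-ND2 at 18.1 ± 4.05, MT-ND3 at 13.8 ± 2.19, MT-ND5 at 11.8 ± 1.78 and MT-ND6 at 7.45 ± 0.633. These levels rest on listed positions only, and in such bulk samples fewer cells and less RNA per cell cannot be told apart.

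**Figure D1:**
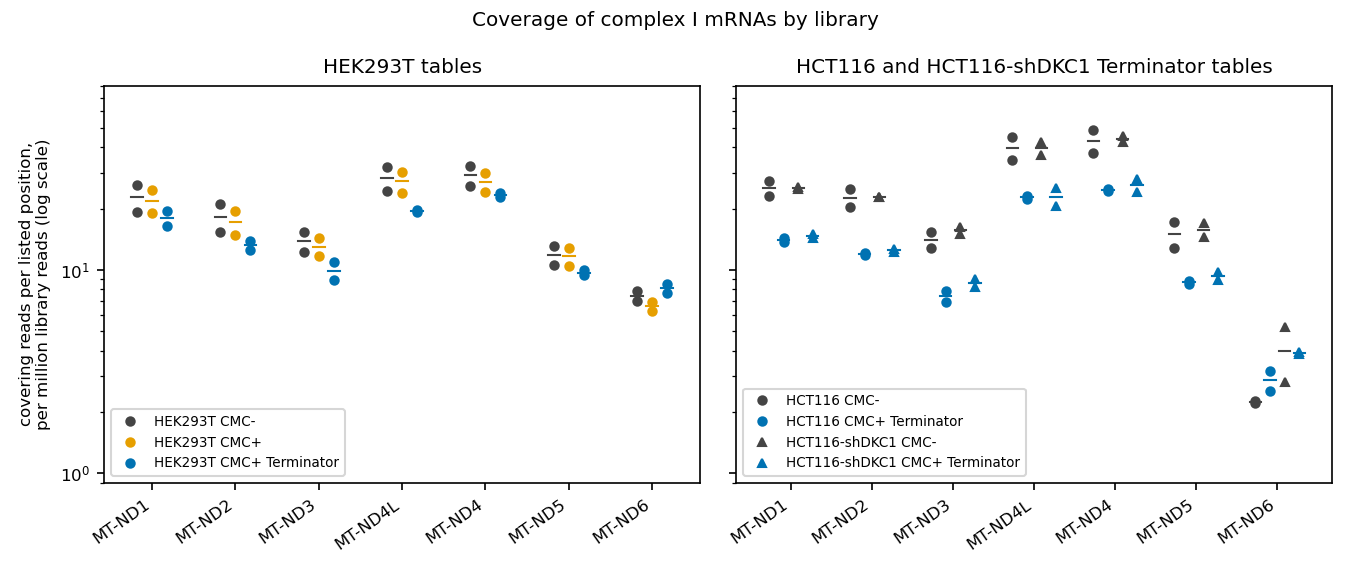
Covering reads per listed position per 1000000 library reads (log axis) of each complex I mRNA, 1 point per library and a bar at the mean of 2. Terminator means lie below CMC- means for 6 members, with overlapping libraries for MT-ND1 in HEK293T; MT-ND6 in HCT116 runs from 2.22 and 2.28 in CMC- to 3.19 and 2.55 in CMC+ Terminator.

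The 6 members of the heavy strand had a lower mean coverage in the Terminator than in the CMC- libraries of every cell population. The libraries of the 2 groups did not overlap, except for MT-ND1 in HEK293T, where a Terminator library at 19.46 lay above a CMC- library at 19.16. The share of all genes whose libraries separated in this way was not counted. These levels are scaled by library totals, a scaling that moved the median of all genes, as given below. For MT-ND4 in HCT116 the values were 37.7 and 48.4 in CMC- and 24.3 and 25.0 in CMC+ Terminator libraries, with no overlap. In HCT116-shDKC1 they were 42.6 and 45.6 against 24.2 and 27.8, again apart. In HEK293T MT-ND4 stood at 25.9 and 32.3 in CMC-, 24.1 and 29.95 in CMC+ and 22.8 and 23.8 in CMC+ Terminator libraries, so that the Terminator pair was lowest but close to the lower CMC+ library. For MT-ND6 the HCT116 values were 2.22 and 2.28 in CMC- and 3.19 and 2.55 in CMC+ Terminator libraries. The HEK293T values were 7.003 and 7.90 in CMC-, 6.28 and 6.93 in CMC+ and 8.52 and 7.72 in CMC+ Terminator libraries. In HCT116-shDKC1 they were 5.22 and 2.798 in CMC- and 3.86 and 3.95 in CMC+ Terminator libraries. MT-ND6 thus overlapped between treatments in HEK293T and the knockdown and did not in HCT116.

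In edgeR's quasi-likelihood fit of gene coverage with TMM scaling, all 6 heavy-strand members were called lower with Terminator against CMC- in HEK293T, by log2 -0.45 (MT-ND5) to -0.69 (MT-ND4L, ± 0.06 SE, adjusted p 1.87e-05), where 23.2% of 1334 genes were called lower. In HCT116 the 6 were called lower by -0.51 (MT-ND5) to -0.65 (MT-ND3, ± 0.10, adjusted p 3.28e-07), with 23.5% of 2263 genes lower. In HCT116-shDKC1 they were called lower by -0.45 to -0.55 (MT-ND2, ± 0.11, adjusted p 2.07e-05), with 27.0% of genes lower; without the replicate block 2 of the 6 were called. MT-ND6 stood at -0.04 ± 0.06 in HEK293T (adjusted p 0.562; 0.13 under library totals). It rose by 0.60 ± 0.14 in HCT116 (adjusted p 0.000283; 27.8% of genes called higher) on 7 positions, a call that DESeq2, mean covering reads per position (both log2 0.55) and the fit without HCT116 CMC+ Terminator replicate 2 (0.53) did not make. In HCT116-shDKC1 the value was 0.31 ± 0.13 (adjusted p 0.0398; 27.6% of genes called higher) and the call was lost without the replicate block (0.28), with DESeq2 (0.29), with mean covering reads per position (0.30), with no filter on low counts (0.27), without HCT116 CMC+ Terminator replicate 1 (0.32) or 2 (0.28), and with library totals (0.00). Without the knockdown's CMC- replicate 2 the value was -0.10, without its CMC+ Terminator replicate 2 it was 0.03 and without its CMC- replicate 1 it was 0.80. Scaling by library totals in place of TMM moved the median of all genes from 0.02 to 0.18 in HEK293T, from 0.04 to -0.23 in HCT116 and from 0.01 to -0.31 in HCT116-shDKC1. The split of all genes called higher and lower then moved from 318 and 310 to 484 and 111 in HEK293T, from 629 and 532 to 419 and 841 in HCT116, and from 625 and 610 to 393 and 968 in HCT116-shDKC1. All 6 heavy-strand members were still called lower under library totals in the 3 Terminator against CMC- comparisons.

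**Figure D2:**
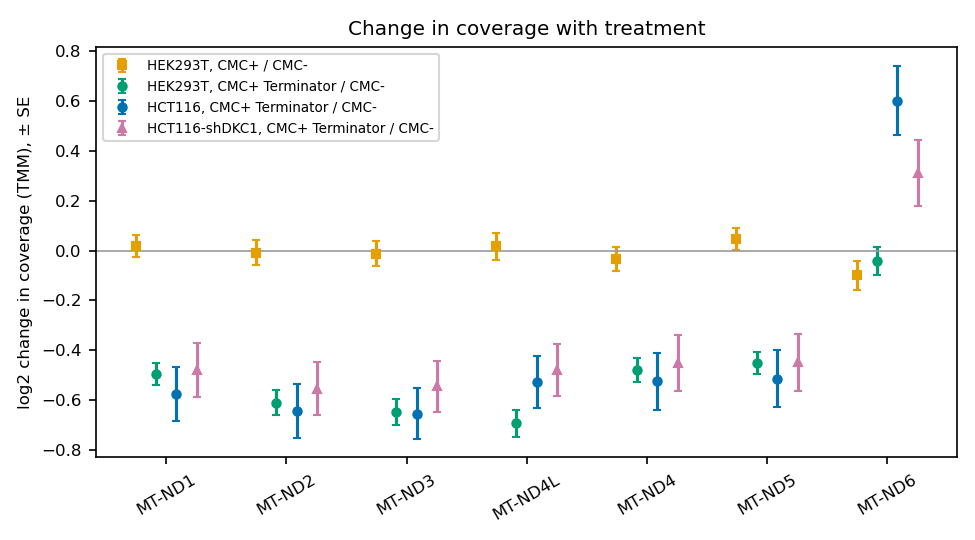
Log2 change in gene coverage (edgeR with TMM, bars ± SE) for each member in 4 comparisons. The 6 heavy-strand members lie between -0.45 and -0.69 in the Terminator comparisons and within 0.05 of 0 for CMC+ alone, while MT-ND6 lies at -0.04, 0.60 and 0.31.

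CMC without Terminator gave small changes in HEK293T: the log2 values ran from -0.10 (MT-ND6) to 0.05 (MT-ND5), and edgeR called 0 of 7 members at an adjusted p of 0.05 and 0 at an unadjusted p under that threshold (0.075% of genes were called lower). Terminator against CMC+ in the same cells called the same 6 members lower, by -0.45 ± 0.05 for MT-ND4 to -0.71 ± 0.06 for MT-ND4L (adjusted p 1.35e-05), beside 24.8% of genes; MT-ND6 changed by 0.06 ± 0.06 (adjusted p 0.434), and was called higher, by 0.30, under library totals, which moved the split of all genes from 335 higher and 331 lower to 574 and 85. The other 6 mitochondrial mRNAs, MT-CO1, MT-CO2, MT-CO3, MT-CYB, MT-ATP6 and MT-ATP8, moved by -0.44 to -0.60 in HEK293T, a range that overlaps that of the complex I mRNAs of the same strand. They moved by -0.39 to -0.56 in HCT116 and -0.30 to -0.49 in HCT116-shDKC1. The 2 mitochondrial rRNAs were called lower by -0.37 in HEK293T and by -0.28 and -0.30 in HCT116; in the knockdown they stood at -0.16 and -0.17 and were not called (adjusted p 0.25 and 0.255).

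MT-ND6 was also set against the summed coverage of the other 6 members within each library, a ratio that no scaling between libraries touches. From CMC- to CMC+ Terminator its log2 ratio rose by 0.511 and 0.446 in HEK293T, 1.17 and 1.14 in HCT116, and 0.386 and 1.25 in HCT116-shDKC1. The mean was 0.818 ± 0.410 (SD, 6 pairs). The ratio was formed after the coverage values above were seen and restates them on the same libraries, so it is given with no test. It also rests on listed positions, which had to hold 5 or more stop reads in the treated library. CMC alone in HEK293T moved the ratio by -0.0968 and -0.0925. The low first value of the knockdown goes with its CMC- replicate 1, which held 5.22 MT-ND6 reads per position and 1000000 library reads where replicate 2 held 2.798.

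Stops at the positions listed throughout were more frequent at uridines than at other bases before any CMC was added. Pooled over the 7 mRNAs in HEK293T, the stop percent at U was 4.06 ± 0.251 in CMC-, 5.14 ± 0.486 in CMC+ and 6.25 ± 0.147 in CMC+ Terminator libraries (mean ± SD, n = 2). At other bases it was 3.21 ± 0.296, 4.15 ± 0.412 and 5.01 ± 0.0721. In HCT116 it went from 3.16 ± 0.286 to 5.05 ± 0.287 at U and from 2.51 ± 0.275 to 3.93 ± 0.228 at other bases with CMC and Terminator. In HCT116-shDKC1 it went from 3.15 ± 0.142 to 4.78 ± 0.639 at U and from 2.52 ± 0.245 to 3.83 ± 0.474 at other bases. The excess at U was present in CMC- libraries; the higher values of both classes with CMC follow from the listing.

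Among members, MT-ND3 and MT-ND5 had the highest stop percents at U of the heavy-strand mRNAs. In HEK293T, U of MT-ND3 stood at 5.99 and 5.61 in CMC-, 7.65 and 6.83 in CMC+ and 8.99 and 8.98 in CMC+ Terminator libraries. U of MT-ND4 stood at 3.85 and 3.50, then 4.81 and 4.17, then 5.58 and 5.41. In HCT116, U of MT-ND5 went from 4.24 and 3.53 to 7.25 and 6.96, and U of MT-ND4 from 3.01 and 2.72 to 4.58 and 4.24. The 2 transcripts do not overlap in any of these groups. U of MT-ND6 in HCT116 went from 7.02 and 8.49 to 14.9 and 13.7 on few positions. Because listing needed 5 or more treated stop reads, the lowest stop percent that could be listed was higher where coverage was lower. In HCT116 CMC+ Terminator replicate 1, mean covering reads per position were 547 for MT-ND4, 192 for MT-ND5, 177 for MT-ND3 and 71.7 for MT-ND6. The ranking of members by stop percent cannot be told apart from this limit.

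At single positions the question was where CMC with Terminator raised stops beyond the spread of replicates. A position was called at a Benjamini-Hochberg adjusted p under 0.05 over all tested positions and a fold of at least 2, in edgeR's quasi-likelihood test of stop reads with covering reads as offset. In HEK293T 52 of 461 tested positions of the complex I mRNAs were called higher (11.3%), beside 12.3% of all 14824 tested, with a median log2 change of 0.594 against 0.534 for all. In HCT116 149 of 905 were called (16.5%), beside 24.8% of 26153, with medians of 0.621 and 0.642. In HCT116-shDKC1 112 of 905 were called (12.4%), beside 19.5%, with medians of 0.557 and 0.567. The HEK293T count is thus close to the background, and the other 2 lie below it. The other mitochondrial mRNAs had 37 of 614 called in HEK293T (6.03%), 136 of 1190 in HCT116 (11.4%) and 74 of 1190 in HCT116-shDKC1 (6.22%).

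Among the heavy-strand members, MT-ND3 and MT-ND5 had the larger shares of called positions in HCT116, 11 of 37 and 44 of 176, beside the 24.8% of all positions, and MT-ND4L the smallest, 5 of 67. MT-ND1 had 27 of 166, MT-ND2 24 of 153 and MT-ND4 37 of 303. In HCT116-shDKC1 the counts were 23 for MT-ND1, 22 for MT-ND2, 8 for MT-ND3, 2 for MT-ND4L, 21 for MT-ND4 and 34 for MT-ND5. In HEK293T they were 12 of 90, 5 of 79, 4 of 27, 3 of 34, 17 of 155 and 9 of 68 in the same order. MT-ND6 had 2 of 8 in HEK293T, 1 of 3 in HCT116 and 2 of 3 in the knockdown.

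These counts depended on libraries and scaling. In HEK293T the 52 calls fell to 31 without CMC+ Terminator replicate 1, 12 without CMC+ Terminator replicate 2, 19 without CMC- replicate 1 and 13 without CMC- replicate 2, and DESeq2, which gave no adjusted p for 287 of the 461, called 7. DESeq2 called 51 in HCT116 and 30 in HCT116-shDKC1. Where stop reads were scaled by TMM with no account of coverage, the split of members called higher and lower was 0 and 28 in HEK293T, 11 and 166 in HCT116, and 6 and 141 in HCT116-shDKC1. Scaled by library totals it was 28 and 0, 24 and 3, and 15 and 2. TMM scaling turned the direction of the counts and library totals did not; the cause was not tested.

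**Figure D3:**
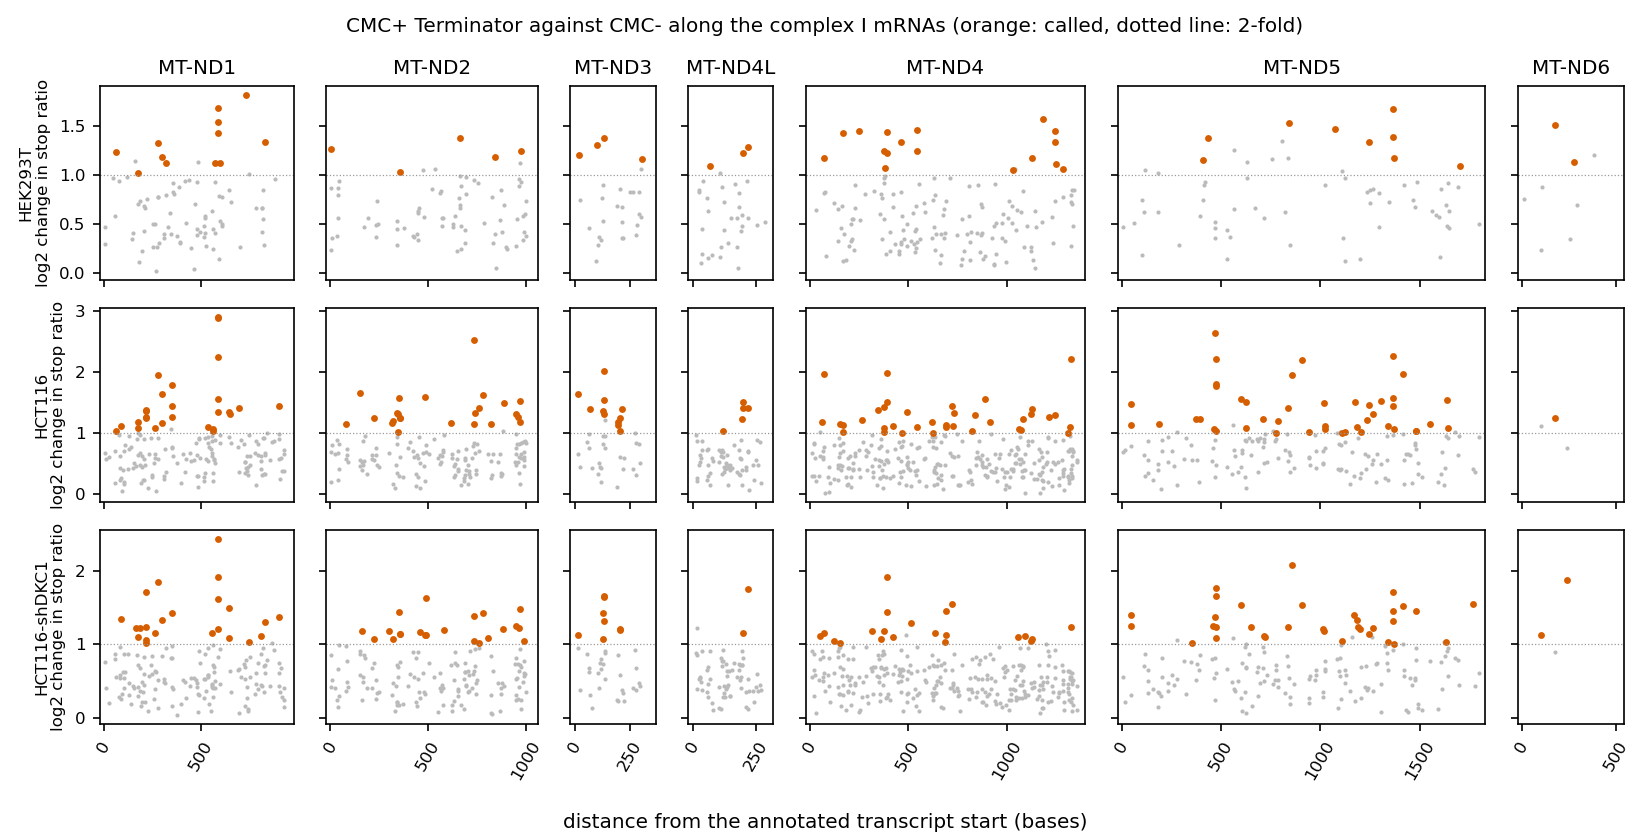
Log2 change in stop ratio, CMC+ Terminator over CMC-, at each tested position against its distance from the annotated start of the transcript, in 3 cell populations; called positions are orange. Called positions are spread over all 7 transcripts, and the highest points in HCT116 stand at MT-ND1 with 2.91 and in HCT116-shDKC1 at the same place with 2.43.

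The 11 positions called in all 3 populations were 3 in MT-ND1 (A3482, C3894, C3895), 1 in MT-ND3 (A10190), 4 in MT-ND4 (A11138, A11153, U11154, U11886) and 3 in MT-ND5 (U13581, C13705, U13706). Of the 11, 4 were uridines. The tested positions of these mRNAs held 218 U and 243 other bases in HEK293T, and 433 and 472 in HCT116 and its knockdown. Of the 177 positions tested in both HEK293T and HCT116, 35 were called in HEK293T and 36 in HCT116, and 16 were called in both, 7 U and 9 other bases, which is 45.7% of the first list and 44.4% of the second. Over all 5083 positions tested in both, 677 were called in both, 78.7% of the HEK293T list and 45.7% of the HCT116 list. HCT116 and HCT116-shDKC1 shared 66 calls, 44.3% of the HCT116 list and 58.9% of the knockdown list, where all positions gave 61.6% and 78.3%.

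MT-ND4 U11154, in the sequence shown above, was the position called with CMC alone in HCT116 as well. In HCT116 its stop percent was 0.949 and 1.19 in CMC- and 4.15 and 4.47 in CMC+ Terminator libraries (log2 1.99 ± 0.18 SE, adjusted p 1.01e-06). In HCT116-shDKC1 it was 0.997 and 1.20 against 3.98 and 4.38 (1.92 ± 0.17, adjusted p 1.53e-06). In HEK293T it was 2.19 and 2.20 in CMC-, 3.53 and 3.55 in CMC+ and 4.87 and 6.85 in CMC+ Terminator libraries (Terminator against CMC-, 1.44 ± 0.14, adjusted p 0.00107). The 3 HEK293T groups do not overlap and stand in that order. The listing fixes the direction of both treated groups against CMC- within each pair, and the position was named for being called. Its place above CMC- therefore adds no support, and CMC+ against CMC- was not called there, as given below.

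The base before it, A11153, and A11138 upstream rose with it. A11153 went from 4.39 and 4.08 to 11.1 and 12.8 in HCT116 (1.51 ± 0.13, adjusted p 1.09e-06), from 3.90 and 4.22 to 10.3 and 11.7 in the knockdown (1.44 ± 0.13, adjusted p 2.34e-06) and from 4.73 and 3.83 over 6.70 and 6.54 with CMC alone to 9.54 and 10.7 in HEK293T (1.23 ± 0.12, adjusted p 0.000977). A11138 went from 4.75 and 4.70 to 13.3 and 12.3 in HCT116, from 5.23 and 4.14 to 11.6 and 9.74 in the knockdown, and from 5.75 and 4.16 over 6.45 and 5.70 to 9.77 and 13.5 in HEK293T, where the CMC+ values overlap those of CMC-. U11886, near the 3′ end of MT-ND4, went from 5.21 and 5.00 over 5.95 and 5.01 to 11.9 and 10.8 in HEK293T (1.18 ± 0.09, adjusted p 0.000297). In HCT116 it went from 5.41 and 4.29 to 11.6 and 13.3, and in the knockdown from 5.14 and 4.77 to 10.4 and 10.5. Unlike those of U11154, its CMC+ values in HEK293T lie on those of CMC-, a difference between the positions that was not tested.

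**Figure D4:**
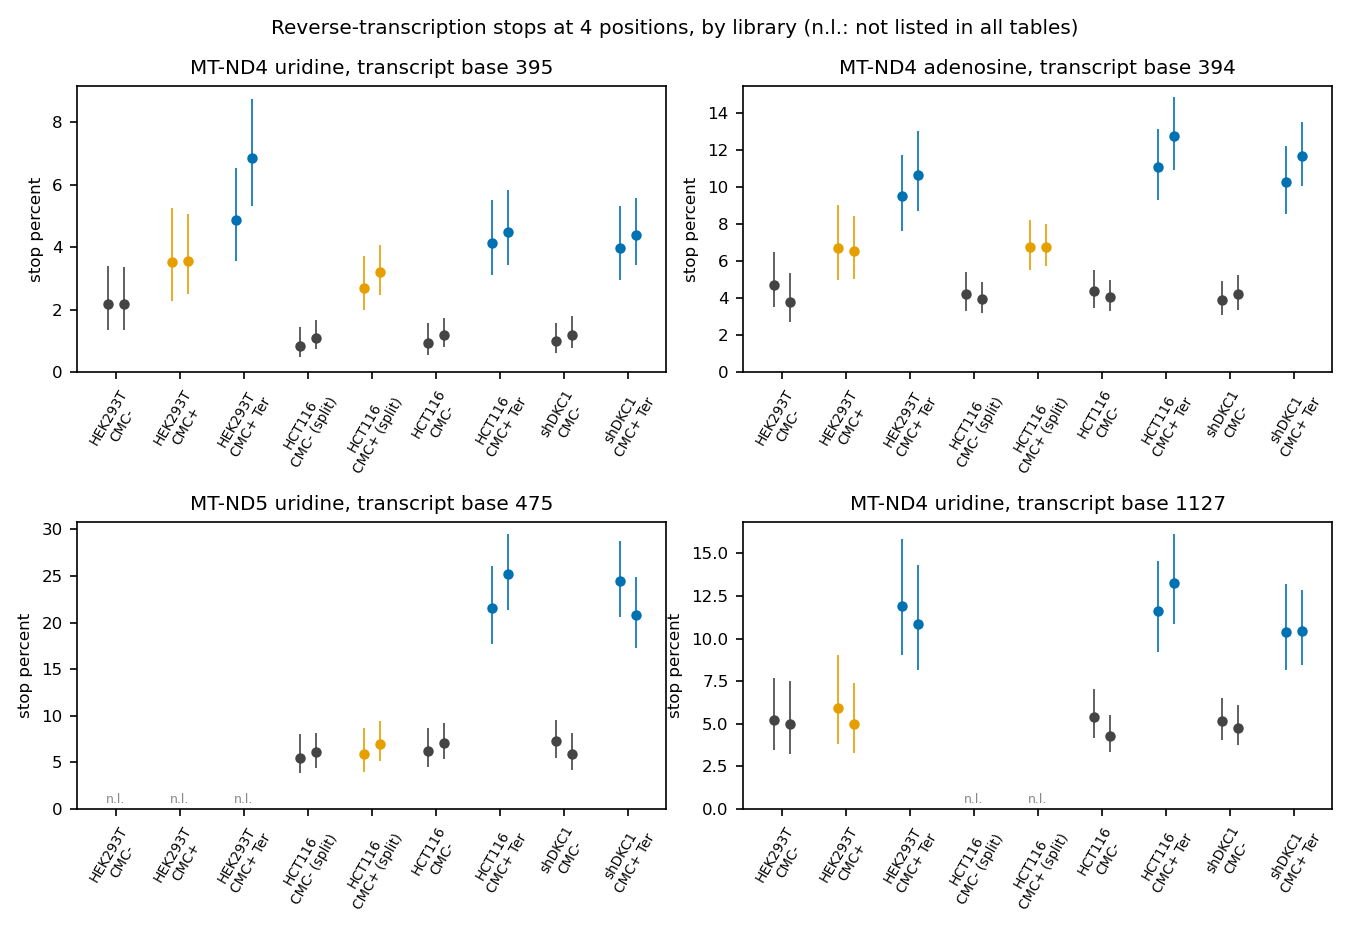
Stop percent in every library (points) with 95% Wilson intervals, which cover counting error only, at 4 positions named by transcript base; Ter stands for Terminator and split for tables in which reads are shared out among matching places. At MT-ND4 base 395 (U11154) the CMC+ points lie above the CMC- points of the same tables, a change not called in HEK293T. Its HEK293T Terminator points lie higher still. The CMC+ points overlap those of CMC- at MT-ND5 base 475 (U12811) in the HCT116 split tables. They also overlap at MT-ND4 base 1127 (U11886) in HEK293T. At both, Terminator points lie above the CMC- points of the same tables.

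MT-ND5 U12811 went from 6.27 and 7.05 in CMC- to 21.6 and 25.2 in CMC+ Terminator libraries (1.81 ± 0.16, adjusted p 1.17e-06). In the knockdown it went from 7.29 and 5.87 to 24.5 and 20.8 (1.77 ± 0.16, adjusted p 1.94e-06). With CMC alone in HCT116 it stood at 5.87 and 6.97 against 5.50 and 6.09 in CMC-, values that overlap. It lies in a run of 4 neighbouring calls, A12810 to C12813, shared by HCT116 and the knockdown, and it was not listed in every HEK293T table. U12805, a little upstream, went from 0.952 and 0.725 to 6.57 and 4.29 in HCT116 (2.64 ± 0.33, adjusted p 2.61e-05) and from 2.70 and 1.83 to 6.17 and 5.66 in the knockdown (1.38 ± 0.25, adjusted p 0.00343), but in HEK293T its values were 8.19 and 6.00 in CMC- and 8.37 and 11.8 in CMC+ Terminator libraries (0.52 ± 0.26, adjusted p 0.382). At the 3′ part of MT-ND5, U13706 went from 10.9 and 7.01 to 19.1 and 17.7 in HCT116 and from 7.80 and 9.07 to 16.4 and 20.5 in HEK293T, and C13705 beside it from 2.69 and 2.02 to 13.5 and 9.58 in HCT116 and from 4.60 and 5.40 to 10.7 and 16.1 in HEK293T. U13581 went from 3.09 and 2.69 to 8.55 and 6.03 in HEK293T and from 5.97 and 3.70 to 11.6 and 14.3 in HCT116. At U13706, C13705 and U13581 no CMC- value reached a CMC+ Terminator value of the same cells. This separation adds no support, because the 3 positions were named for being called and the listing fixes the direction within each pair.

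MT-ND1 A3892, in the run shown above, changed most of all member positions in HCT116, from 1.74 and 0.738 to 9.44 and 8.75 (2.91 ± 0.24, adjusted p 4.54e-07), and went from 1.83 and 1.45 to 8.81 and 8.84 in the knockdown (2.43 ± 0.21, adjusted p 1.41e-06). With CMC alone in HCT116 it stood at 2.07 and 1.36 against 1.65 and 0.699 in CMC- libraries of the same tables, values that overlap. A3891 went from 3.55 and 2.90 over 3.91 and 3.59 to 9.02 and 11.7 in HEK293T (1.69 ± 0.15, adjusted p 0.000625). The 4 bases A3892 to C3895, called in both HCT116 and the knockdown, include no uridine. C3894 went from 1.48 and 0.914 to 3.40 and 3.59 in HEK293T, and from 0.998 and 0.839 to 3.95 and 4.72 in HCT116. G4037 changed most in HEK293T, from 1.14 and 2.16 over 3.07 and 3.16 to 7.06 and 5.12 (1.82 ± 0.31, adjusted p 0.0105).

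The remaining members held fewer leading sites. In MT-ND2, A5208 went from 1.24 and 0.786 to 6.83 and 4.91 in HCT116 (2.52 ± 0.24, adjusted p 2.59e-06) and from 2.08 and 1.29 to 5.37 and 3.52 in the knockdown; its window is found elsewhere in the tables. In MT-ND3, A10190 went from 2.91 and 3.98 to 10.2 and 7.34 in HEK293T (1.38 ± 0.26, adjusted p 0.0152), from 4.02 and 2.18 to 7.11 and 8.04 in HCT116 and from 3.11 and 2.65 to 8.03 and 6.34 in the knockdown. MT-ND3 U10078 went from 14.5 and 14.5 over 14.9 and 14.6 to 36.5 and 30.6 in HEK293T (1.20 ± 0.14, adjusted p 0.0161), on 35 and 45 covering reads in the Terminator libraries. In MT-ND4L, U10687 went from 4.25 and 3.51 over 4.59 and 3.87 to 7.95 and 10.8 in HEK293T (1.29 ± 0.19, adjusted p 0.00562).

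MT-ND6, on the opposite strand, was tested at 8 positions in HEK293T and 3 in HCT116. A14431 stood at 9.09 and 6.17 against 12.8 and 13.4 in HCT116 (0.76 ± 0.33, adjusted p 0.184) and at 5.75 and 3.19 against 20.0 and 14.7 in the knockdown (1.87 ± 0.26, adjusted p 8.36e-05), and the difference between the 2 responses was 1.11 ± 0.45 (adjusted p 1).

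Some called positions adjoined each other, and the share that did so over all tested positions was not counted. In HCT116 58 of the 149 calls lay in 21 runs of neighbouring called positions, 10 of them of 3 or more bases and the longest of 5. In HCT116-shDKC1 33 of 112 lay in 11 runs, and in HEK293T 11 of 52 lay in 5. Of the 66 calls shared by HCT116 and the knockdown, 30 lay in 10 runs, among them the 5 runs of 4 bases shown above. Of called positions of other bases in HCT116, 24.7% had a U before and 28.8% a U after, against 27.8% and 29.7% of those tested. In the knockdown 20.0% and 26.7% did, against the same shares tested. In HEK293T 37.5% and 31.2% did, against 31.3% and 32.1%. The shares with a U before thus lay above those tested in HEK293T and below them in HCT116 and the knockdown, differences that were not tested.

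CMC alone was measured in HEK293T and HCT116. In HEK293T edgeR called 0 of the 461 tested positions of these mRNAs (16 at an unadjusted p under 0.05, smallest adjusted p 0.0785), beside 1.41% of all tested positions; DESeq2 called 0 but gave no adjusted p for 407 of them. Their median log2 change was 0.304 against 0.294 for all. U11154 changed by 0.70 ± 0.17 (adjusted p 0.629) there. In HCT116, where stop reads were scaled by the listed stop reads of each library, 1 of 1137 positions was called, beside 0.218% of all tested, and 24 had an unadjusted p under 0.05. The called position was U11154, at 2.69 and 3.20% in CMC+ against 0.861 and 1.10% in CMC- libraries (1.43 ± 0.07, adjusted p 0.00298). Over the alternatives tried in edgeR its log2 values were 1.19 to 1.78. With all libraries kept, their adjusted p ran from 0.000592 to 0.094. The listing fixes the direction of its stop ratio, but not that of stop reads scaled in this way. DESeq2 gave no adjusted p for 1116 of the 1137 positions, U11154 among them. The call was lost without the replicate block (adjusted p 0.094) and also where CMC- replicate 1 (log2 1.19) or CMC+ replicate 2 (1.20) was left out, fits that had no block either, so the library and the block cannot be told apart there. A11153 changed by 0.56 ± 0.05 (adjusted p 0.0333), under the fold of 2.

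Terminator against CMC+ in HEK293T, a comparison whose direction the listing does not fix, called 8 of the 461 positions higher (1.74%), beside 0.897% of all tested positions, with a median of 0.267 against 0.221. The largest were MT-ND1 A3891 (1.49 ± 0.15, adjusted p 0.00766), MT-ND1 C3895 (1.39 ± 0.19, adjusted p 0.0323), MT-ND4L U10687 (1.18 ± 0.18, adjusted p 0.0267), MT-ND2 U5136 (1.15 ± 0.12, adjusted p 0.0435) and MT-ND4 G12006 (1.14 ± 0.10, adjusted p 0.0208). U11886 followed with 1.08 ± 0.09 (adjusted p 0.00806), and 5 of the 8 were uridines, beside 218 of the 461 tested. The 8 calls fell to 0 without CMC+ Terminator replicate 2 or CMC+ replicate 2, to 4 without CMC+ Terminator replicate 1 and to 3 without CMC+ replicate 1. DESeq2 called 0 but gave no adjusted p for 460 of the 461.

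No difference between knockdown and wild type passed the test in these mRNAs. The difference in Terminator response between HCT116-shDKC1 and HCT116 was called at 0 of 905 positions by edgeR (2 positions, 1 in each direction, had an unadjusted p under 0.05), beside 0.0115% of all tested positions called lower; DESeq2 gave no adjusted p for any of the 905. Its median was -0.077 for these mRNAs and -0.074 for all positions. The differences at the leading sites were -0.07 ± 0.26 at U11154, -0.04 ± 0.24 at U12811 and -0.31 ± 0.21 at U11886. They were -1.26 ± 0.43 at U12805 and -1.13 ± 0.34 at A5208 (both adjusted p 1). Summed per gene and base class, the differences of the 6 heavy-strand members ran from -0.13 to 0.00 with SE of 0.08 to 0.13, and edgeR called 0 of these sums, as of all 2568 tested (0%). MT-ND6 gave -0.09 ± 0.26 at U and 0.57 ± 0.38 at other bases. In CMC- libraries the gene coverage of the 6 differed by -0.02 (MT-ND4L, ± 0.20) to 0.14 (MT-ND3, ± 0.15), and that of MT-ND6 by 0.82 ± 0.21 (unadjusted p 0.00102, adjusted p 0.177); 0.0442% of genes were called higher. With the replicate block MT-ND6 was called (0.79), without the knockdown's CMC- replicate 1 its difference was 0.30, and without its CMC- replicate 2 it was 1.21 and called.

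The response of U was set against that of other bases, because CMC adducts on pseudouridine can only fall on U. In each replicate pair, the log2 ratio of the pooled stop percent in CMC+ Terminator over CMC- libraries at other bases was subtracted from that at U. For the complex I mRNAs the differences were 0.0157 and -0.0651 in HEK293T, 0.0456 and 0.00874 in HCT116, and 0.0601 and -0.0658 in HCT116-shDKC1. They fall on both sides of 0, with a mean of -0.00013 ± 0.054 (SD, 6 pairs). For all listed positions outside the mitochondrial mRNAs and rRNAs the mean was 0.226 ± 0.0382, from 0.179 to 0.275. The complex I mRNAs lay below them in all 6 pairs, by -0.226 ± 0.0665 (SD, 6 pairs); this comparison was added after seeing the data and is given with no test. The other mitochondrial mRNAs had a mean of 0.0306 ± 0.0297 and the mitochondrial rRNAs 0.0651 ± 0.0173. The pairs of a cell population share its libraries' preparation, and the positions of an mRNA share reads. The differences cover only positions listed throughout, where no treated stop ratio lay below its control's, at U and other bases alike. Those tested held 218 U and 243 other bases in HEK293T, and 433 and 472 in HCT116 and its knockdown. U made up 26.5% of the transcripts. A difference near 0 at positions selected in this way does not measure whether U was preferred.

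**Figure D5:**
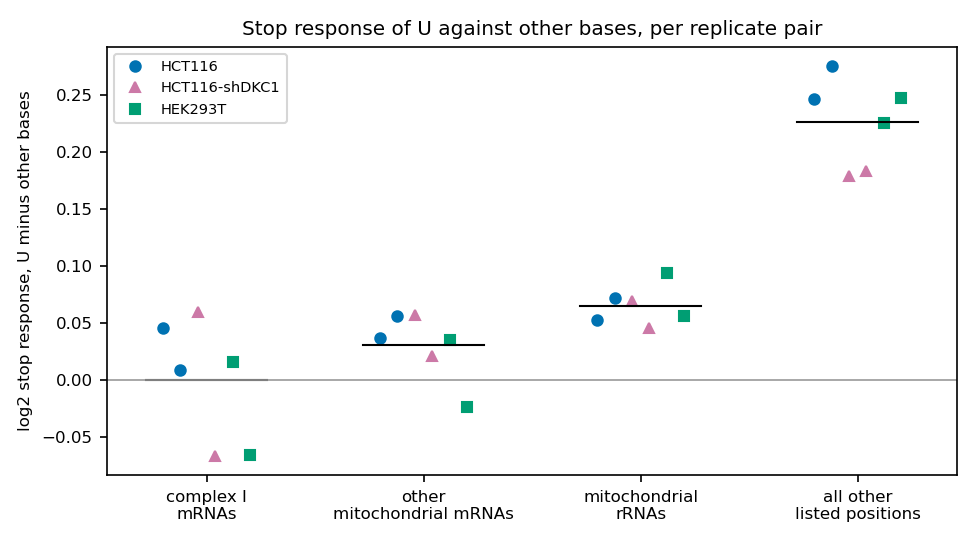
Log2 stop response (CMC+ Terminator over CMC-) at U minus that at other bases, 1 point per replicate pair and a bar at the mean of 6 pairs, in 4 sets of positions. The complex I mRNAs scatter about 0, from -0.0658 to 0.0601, and all other listed positions lie from 0.179 to 0.275.

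The counts of called positions were also split by base. In HEK293T 20 of 218 tested U (9.17%) and 32 of 243 other bases (13.2%) of the complex I mRNAs were called with Terminator against CMC-. Outside the mitochondrial mRNAs and rRNAs 19.0% of U and 8.91% of other bases were called. Nuclear copies of mitochondrial genes were not taken out of that set. In HCT116 76 of 433 U (17.6%) and 73 of 472 other bases (15.5%) were called, where 2430 of 8380 U and 3710 of 14864 other bases were called outside the mitochondrial mRNAs and rRNAs. In HCT116-shDKC1 the counts were 52 (12.0%) and 60 (12.7%), beside 23.8% and 19.4%. U thus had the lower share in HEK293T and the higher in HCT116, and these differences were not tested.

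Nuclear genes of complex I were thinly listed. Of 37 nuclear-encoded subunits, 17 were tested for coverage in HEK293T, where 6 were called higher and 1 lower with Terminator against CMC-, beside 23.8% and 23.2% of all genes (median 0.23, against 0.017 for all genes). A gene's coverage here rests on its listed positions, which had to hold 5 or more stop reads in the treated library. On 1 position each, NDUFC1, an accessory subunit of the membrane arm, rose by 1.26 ± 0.20 (adjusted p 0.000451), and NDUFS7, a core subunit that carries an iron-sulfur cluster, by 0.58 ± 0.19 (adjusted p 0.0304). NDUFA1, another accessory subunit, fell by 0.29 on the log2 scale (adjusted p 0.0397) on 3 positions. In HCT116 and its knockdown 6 subunits were tested on 1 position each. In HCT116 3 of 6 were called higher, beside 27.8% of all genes, led by NDUFA1 (2.60 ± 0.28, adjusted p 5.82e-11), and in HCT116-shDKC1 2 of 6, beside 27.6%, with NDUFA1 at 2.65 ± 0.29. NDUFA1 thus fell in HEK293T and rose in the other cells, a difference that was not tested. Of 14 complex I assembly factors only NDUFAF8 was tested, in HEK293T, and rose by 0.59 ± 0.15 (adjusted p 0.00624). Of 9 genes for mitochondrial RNA synthesis and stability only SLIRP was tested, in HEK293T, at -0.10 and not called. Of 4 mitochondrial pseudouridine synthases only TRUB2 was tested, on 1 position, in HCT116 at 1.36 ± 0.41 (adjusted p 0.00903) and in the knockdown at 0.55, not called. Between knockdown and wild type 0 of the 6 tested subunits were called, and TRUB2 was not called either.

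The genes whose coverage most resembled the summed coverage of the 7 mRNAs over the 8 Terminator-table libraries of HCT116 and HCT116-shDKC1 were chosen by Pearson's r among 1967 genes, given as a description because libraries share depth and treatment. They were MTCO1P12 (r 0.997), RPSAP45 (0.995), MTATP6P1 (0.994), RPL23A (0.993) and RPL23AP42 (0.993). MTCO1P12 and MTATP6P1 are nuclear copies of mitochondrial genes, and 235 of 263 and 109 of 138 of their positions share a 31-base window with another place, so their reads cannot be told apart from mitochondrial ones.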

How the data were processed

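The submitters' processing notes name cutadapt 2.8, STAR and hg38. The authors' deposited tables give stop reads and covering reads per position: whole counts for HCT116 and the knockdown with Terminator, and expected counts, in which reads matching several places are shared out, in the others; expected counts were rounded for tests. The deposited tables carry ratios of stop to covering reads, and these were recomputed from the reads. Library totals were recovered as stop reads over the authors' deposited RPM values, and coverage levels are per 1000000 of those reads. Median covering reads per listed position were 49.1 to 213. Tests used edgeR 4.0.16 (quasi-likelihood, Benjamini-Hochberg adjustment) in R 4.3.3, fitted on all positions or genes with at least 10 reads in 2 libraries, with covering reads as offset for stop ratios; DESeq2 1.42.0 was an alternative. Summaries used Python 3.11.15, pandas 2.3.3 and scipy 1.17.1. Genes followed GENCODE 29.

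Stop tests and the Terminator coverage tests kept the replicate number as a block, because each table pairs a treated library with the control of its number; deviations of same-numbered libraries correlated at 0.05 to 0.392. In the joint fits of HCT116 and HCT116-shDKC1 a single block term spanned both cell populations, although no label pairs a library of HCT116 with a knockdown library. The coverage test of knockdown against wild type had no block. On simulated data the HEK293T stop test (15592 positions) recovered 25.5% of 2-fold and 83.8% of 4-fold changes, and the HCT116 test (26982 positions) 42.7% and 78.8%. Recovery there meant an adjusted p under 0.05 in the right direction, with no fold minimum. The simulation had a fixed dispersion of 0.01, changes in both directions and no listing rule. Its shares are therefore not the recovery of the reported calls, which also needed a fold of at least 2. Named positions were, per member, the highest stop percents of each base class and, per comparison, the 5 largest called changes; positions called in all 3 cell populations, neighbouring runs and the examples between them were added after their values were seen. Members and lists were chosen with earlier results of these data known. The ratio of MT-ND6 to the other members, the U against other comparison, and the coverage tests of CMC+ alone and of Terminator against CMC+ were added after seeing the data. Some results are not reported here.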

Additional observations from a re-analysis of the deposited data

How the results depend on the processing

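Among the members' counts of calls, 292 values under alternatives stayed within 1.5 times the reported count and 50 did not. For Terminator against CMC- stop ratios, members called higher (lower) under library totals in place of coverage were 28 (0) in HEK293T, 24 (3) in HCT116 and 15 (2) in HCT116-shDKC1. Under TMM they were 0 (28), 11 (166) and 6 (141); DESeq2 called 7, 51 and 30 higher, and no fold minimum gave 80, 296 and 237. For Terminator against CMC+ in HEK293T they were 5 (1) under library totals, 0 (72) under TMM and 0 with DESeq2. Positions without an adjusted p in DESeq2 count as not called, so its counts of 0 carry little weight. Leaving out single libraries gave 12 to 54, 112 to 149, 76 to 113 and, against CMC+, 0 to 8. No count of members called lower in stop ratio, and no count for CMC alone in HEK293T or for the knockdown difference, left 0 when a library was left out (0 to 0).

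The single call with CMC alone in HCT116 went to 0 with no replicate block and to 0 to 1 with libraries left out and no block together; DESeq2, which gave it no adjusted p, called 0. In coverage, the replicate block gave 1 member called higher between knockdown and wild type in place of 0 (0 to 1 with libraries left out). The 1 member called higher in HCT116, MT-ND6, went to 0 with DESeq2 and with mean covering reads per position (0 to 1 with libraries left out; lower 5 to 6). In HCT116-shDKC1 it went to 0 under library totals, DESeq2, no replicate block, no filter on low counts and mean covering reads per position (0 to 1; lower 4 to 6), and 2 members were called lower with no replicate block. In HEK293T 6 to 6 were lower against either control, and library totals gave 1 higher against CMC+.

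Of values for named positions and genes, 1084 kept direction and call, 159 lost the call, 5 gained it and 16 reversed; for 18 DESeq2 gave no adjusted p, and these were left out. With TMM in place of coverage MT-ND1 A3482 gave -0.021 in HEK293T, -0.396 in HCT116 and -0.238 in HCT116-shDKC1; MT-ND3 A10190 gave -0.061 in HCT116 and -0.025 in HCT116-shDKC1; MT-ND3 U10078 gave -1.02 in HEK293T, and -0.22 under library totals. In HCT116-shDKC1 MT-ND1 A3891 gave -0.215, MT-ND4 U11886 -0.049 and MT-ND5 U13581 -0.021. MT-ND5 U12811 with CMC alone gave 0.15 with coverage as offset and -0.37 to 0.10 with libraries left out. MT-ND6 coverage in HEK293T gave 0.13 under library totals and -0.118 to 0.031 with libraries left out, against CMC+ -0.017 to 0.131, and in HCT116-shDKC1 -0.10 to 0.80. The causes were not tested. Depth limits MT-ND6 most, with 16, 7 and 4 positions in the 3 sets of tables.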
